A study of Mus musculus with 22 samples.

Results

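The 4 genes described here, Nhsl2, Matn2, Popdc2 and Sh3bp4, were selected from the count table for their rise between cells that carried an empty vector and cells that carried a FOXP3 vector. They are 4 of 55011 genes in the table, and all 4 were among the 15462 genes with enough reads to be tested. The values that chose them are therefore given as a description with no test. The question asked of them was whether wild-type regulatory T cells share the rise.

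Mouse CD4+ T cells were profiled by Smart-seq, with 2 libraries for each of 11 sample codes (22 libraries), and the counts of both were summed. In the FOXP3 group (5 codes: F1, F2, F5, N2, N3) and the LNGFR group (3 codes: G1, G2, G3) the cells came from lymph nodes of 10-day-old scurfy mice, which lack functional Foxp3, on a C57BL/6 background. The first received a lentiviral vector with human FOXP3 and a truncated LNGFR surface reporter, and the second received the vector with the reporter alone. The WT Treg group (3 codes: E2, G4, L1) was CD4+CD25+ cells marked by CD45.1, although the genotype label reads Foxp3-deficient for every sample. All recipients were scurfy mice, conditioned at 10 days of age with cyclophosphamide (50 mg/kg), which received the cells on day 14 and human IL-2 at 1000 IU/g, daily for 5 days and weekly afterwards, and on day 50 LNGFR+ or CD45.1 CD4+ T cells were sorted from lymph nodes. WT Treg thus differed from the other groups in donor, vector and sort marker as well, and these cannot be told apart. Whether each code stands for a separate mouse is not stated, and p-values then reflect only the spread among these samples, which may be technical.

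FOXP3 is the transcription factor that defines regulatory T cells, which restrain other T cells, and mice without it develop fatal autoimmunity. None of the 4 genes belongs to the well-known genes of these cells. Nhsl2 belongs to the family of the Nance-Horan syndrome protein, which is linked to the WAVE complex and the actin skeleton. Matn2 encodes matrilin-2, a secreted adaptor of the extracellular matrix with von Willebrand factor A and EGF-like domains. Popdc2 encodes a Popeye domain membrane protein that binds cAMP and is best known from heart and skeletal muscle. Sh3bp4 encodes an SH3 domain adaptor of endocytosis that also binds the Rag GTPases, which signal amino acid supply to mTORC1.

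By GENCODE M21 on GRCm38, all 4 genes lie on the plus strand. Nhsl2 (ENSMUSG00000079481.11) spans chrX:101849385-102092055, Matn2 (ENSMUSG00000022324.15) chr15:34306677-34436273, Popdc2 (ENSMUSG00000022803.12) chr16:38362209-38378216 and Sh3bp4 (ENSMUSG00000036206.12) chr1:89070415-89155068. RefSeq promoters on GRCm38.p6, from 250 bases before to 50 after the start, were matched by symbol for 2 of the 4 genes, Popdc2 (chr16:38361940-38362239) and Sh3bp4 (chr1:89070165-89070464), both on the plus strand. They are shown because the genes were chosen for a response to a forkhead factor and because their base composition differs. Capitals mark, on either strand, the forkhead-like letters TGTTTNC, the NFAT core GGAAA and the GC box GGGCGG.
Popdc2: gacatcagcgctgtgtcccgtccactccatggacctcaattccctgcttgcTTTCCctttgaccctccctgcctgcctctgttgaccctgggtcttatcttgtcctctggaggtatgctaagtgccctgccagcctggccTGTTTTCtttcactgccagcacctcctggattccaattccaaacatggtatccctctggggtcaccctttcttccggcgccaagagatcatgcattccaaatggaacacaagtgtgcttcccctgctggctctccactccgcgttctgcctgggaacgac
Sh3bp4: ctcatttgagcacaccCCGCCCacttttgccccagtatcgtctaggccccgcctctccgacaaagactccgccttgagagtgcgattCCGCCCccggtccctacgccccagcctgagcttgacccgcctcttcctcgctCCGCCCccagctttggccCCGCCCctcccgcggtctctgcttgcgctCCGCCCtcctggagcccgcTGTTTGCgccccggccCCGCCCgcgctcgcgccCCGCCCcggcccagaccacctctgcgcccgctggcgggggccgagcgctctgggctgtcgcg
TGTTTNC, a form that includes the stricter forkhead letters TGTTTAC, occurred 1 time in each window, 110 bases before the start in Popdc2 and 45 bases before it in Sh3bp4. These letters were also found in 20.5% of all 32851 promoter windows of this length. TGTTTAC itself (3.65% of windows), the STAT letters TTCNNNGAA (8.3%) and the AP-1 letters TGANTCA (7.81%) were in neither window. The Sh3bp4 window held 7 GC boxes, letters found at least 1 time in 35.7% of windows, and the Popdc2 window held none. GGAAA was in the Popdc2 window and in 61.3% of all windows. The Sh3bp4 window was 73.3% G and C with 34 CpG, against 56% and 7 CpG in Popdc2 and medians of 52.7% and 7 over all windows. A match is a description of letters, not of a site.

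Total counts per code ran from 1154626 to 10376164. Both E2 libraries, with 641980 and 512646 counts, and library 2 of G1, with 332570, were the shallowest. In E2, 54.8% of counts fell on 13 repeat-like gene models, against 2.51% to 6.55% in the other codes. The summed T cell markers (Cd3e, Cd3d, Cd3g, Cd4, Lck, Trac) ran from 1848 to 5781 CPM across codes. CPM is the count of a code scaled to 1e6 reads of its library size over the tested genes. That size is adjusted by TMM, a normalization that trims extreme genes. B cell markers (10 genes) summed to 5543 CPM in N3, against 147 to 625 CPM in the other FOXP3 codes, 565 to 1586 CPM in LNGFR and 151 to 275 CPM in WT Treg. Plasma cell markers summed to 463 to 655 CPM in LNGFR, 109 to 310 CPM in WT Treg and 201 to 573 CPM in FOXP3, and myeloid markers to 6.95 to 26.6, 30.4 to 69.8 and 11.2 to 21.8 CPM. The part of such cells in the differences between groups was not tested. In these bulk samples, fewer cells of a type and less RNA per cell cannot be told apart. Foxp3, the mouse gene, averaged 228 CPM in FOXP3, 86.1 CPM in LNGFR and 1305 CPM in WT Treg. The human transgene was not analysed here, and reads of it or of the mutant scurfy transcript were not separated in these counts.

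In words, the 4 genes behaved in 3 ways in WT Treg. Sh3bp4 was at least as high there as in FOXP3 cells. Matn2 and Nhsl2 lay between LNGFR and FOXP3, Matn2 past the test against LNGFR and Nhsl2 not. Popdc2 was only slightly above LNGFR, and its difference did not pass the test. Levels are CPM scaled by TMM as above, unless the library total is named.

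Sh3bp4, the endocytic and Rag GTPase adaptor, was at 8.57, 13.8, 10.6, 13.0 and 9.36 CPM in the FOXP3 codes F1, F2, F5, N2 and N3. It was at 1.34, 2.08 and 2.40 CPM in the LNGFR codes G1, G2 and G3, and at 19.7, 16.3 and 21.7 CPM in the WT Treg codes E2, G4 and L1. The groups did not overlap in any pair, and WT Treg was the highest. Of all tested genes, 4.35% had every FOXP3 code above every LNGFR code and 7.8% had every WT Treg code above them. The mean was 1.94 ± 0.540 CPM (SD, n = 3) in LNGFR and 11.1 ± 2.26 CPM (n = 5) in FOXP3, a fitted log2 difference of 2.45 ± 0.33 (SE), or 5.47-fold. WT Treg averaged 19.3 ± 2.72 CPM (n = 3). This was higher than LNGFR by 3.25 ± 0.36 on the log2 scale (9.51-fold; 95% interval 2.48 to 4.02; adjusted p = 0.000772, edgeR's quasi-likelihood test over all tested genes). The call held under every one of the 20 alternatives computed, with log2 differences from 3.05 to 3.44. Against WT Treg, the FOXP3 codes were lower by a fitted log2 difference of -0.80 ± 0.28 (interval -1.39 to -0.20), which did not pass the adjusted threshold (adjusted p = 0.159) although all 5 codes were below all 3. Such separation in the lower direction was found for 6.25% of tested genes.

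Matn2, the matrix protein, was at 50.5, 65.4, 52.5, 56.1 and 66.3 CPM in FOXP3 codes F1, F2, F5, N2 and N3. The LNGFR codes G1, G2 and G3 held 5.72, 10.1 and 8.27 CPM, and the WT Treg codes E2, G4 and L1 held 10.5, 28.9 and 29.2 CPM. FOXP3 codes varied least for this gene, with a coefficient of variation of 12.6%, and N3 was the highest of them. E2, the lowest WT Treg code, rests on 8 counts, and its 95% Poisson interval of 4.55 to 20.7 CPM includes all LNGFR levels. The FOXP3 mean of 58.2 ± 7.30 CPM stood against 8.02 ± 2.19 CPM in LNGFR, a log2 difference of 2.83 ± 0.34 (7.13-fold). WT Treg, at 22.9 ± 10.7 CPM, was 1.57 ± 0.35 above LNGFR on the log2 scale (2.97-fold; interval 0.82 to 2.32; adjusted p = 0.045, edgeR). That call was not stable: leaving out 1 code at a time ended it in 9 of 11 cases, with adjusted p from 0.00498 (without E2) to 0.295 (without L1) and log2 differences from 1.34 to 1.84. It was kept only without E2 and without N3 (adjusted p = 0.0362). FOXP3 exceeded WT Treg by 1.26 ± 0.31 (interval 0.60 to 1.93; adjusted p = 0.0848, edgeR), with every FOXP3 code above every WT Treg code, a separation in this direction found for 6.12% of tested genes.

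Nhsl2, the relative of the Nance-Horan syndrome protein, was at 37.5, 55.9, 58.9, 79.2 and 9.47 CPM in FOXP3 codes F1, F2, F5, N2 and N3. LNGFR codes G1, G2 and G3 had 2.69, 0.960 and 2.52 CPM, and WT Treg codes E2, G4 and L1 had 18.4, 9.54 and 12.9 CPM. N3 stood below the other 4 FOXP3 codes and just below the lowest WT Treg code. The FOXP3 mean was 48.2 ± 26.2 CPM and the LNGFR mean 2.06 ± 0.953 CPM, a log2 difference of 4.58 ± 0.66 (23.8-fold). The WT Treg mean of 13.6 ± 4.49 CPM was 2.67 ± 0.68 above LNGFR on the log2 scale (6.37-fold; interval 1.20 to 4.15), with every WT Treg code above every LNGFR code, but the adjusted p was 0.0929 (edgeR), against 0.00451 with DESeq2. Without N3 the same difference was 2.67 with an adjusted p of 0.0098 (edgeR). The other 10 fits that left out 1 code did not pass (adjusted p up to 0.358). FOXP3 exceeded WT Treg by 1.90 ± 0.57 (interval 0.68 to 3.13, adjusted p = 0.113, edgeR). Without N3 this difference was 2.16 (adjusted p = 0.0312, edgeR), and the other 10 such fits did not pass (adjusted p up to 0.255).

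Popdc2, the cAMP-binding membrane protein, was at 17.4, 22.3, 15.4, 17.1 and 4.90 CPM in FOXP3 codes F1, F2, F5, N2 and N3. It was at 3.70, 2.40 and 2.28 CPM in LNGFR codes G1, G2 and G3, and at 5.26, 5.18 and 4.93 CPM in WT Treg codes E2, G4 and L1. The WT Treg codes were close to each other, just above the LNGFR codes, and N3 was slightly below them. The FOXP3 mean was 15.4 ± 6.43 CPM against 2.79 ± 0.787 CPM in LNGFR, a log2 difference of 2.50 ± 0.46 (5.64-fold). WT Treg averaged 5.12 ± 0.175 CPM, a log2 difference from LNGFR of 0.90 ± 0.50 (1.87-fold) with an interval of -0.19 to 1.99 and an adjusted p of 0.412 (edgeR). The interval includes no difference and also a difference as large as that of Matn2 (1.57). The difference passed under none of the 20 alternatives. FOXP3 exceeded WT Treg by 1.60 ± 0.45 (interval 0.62 to 2.57, adjusted p = 0.102, edgeR). Without N3 this difference was 1.81 (adjusted p = 0.0312, edgeR). The other 10 fits that left out 1 code did not pass (adjusted p up to 0.257).

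**Figure D1:**
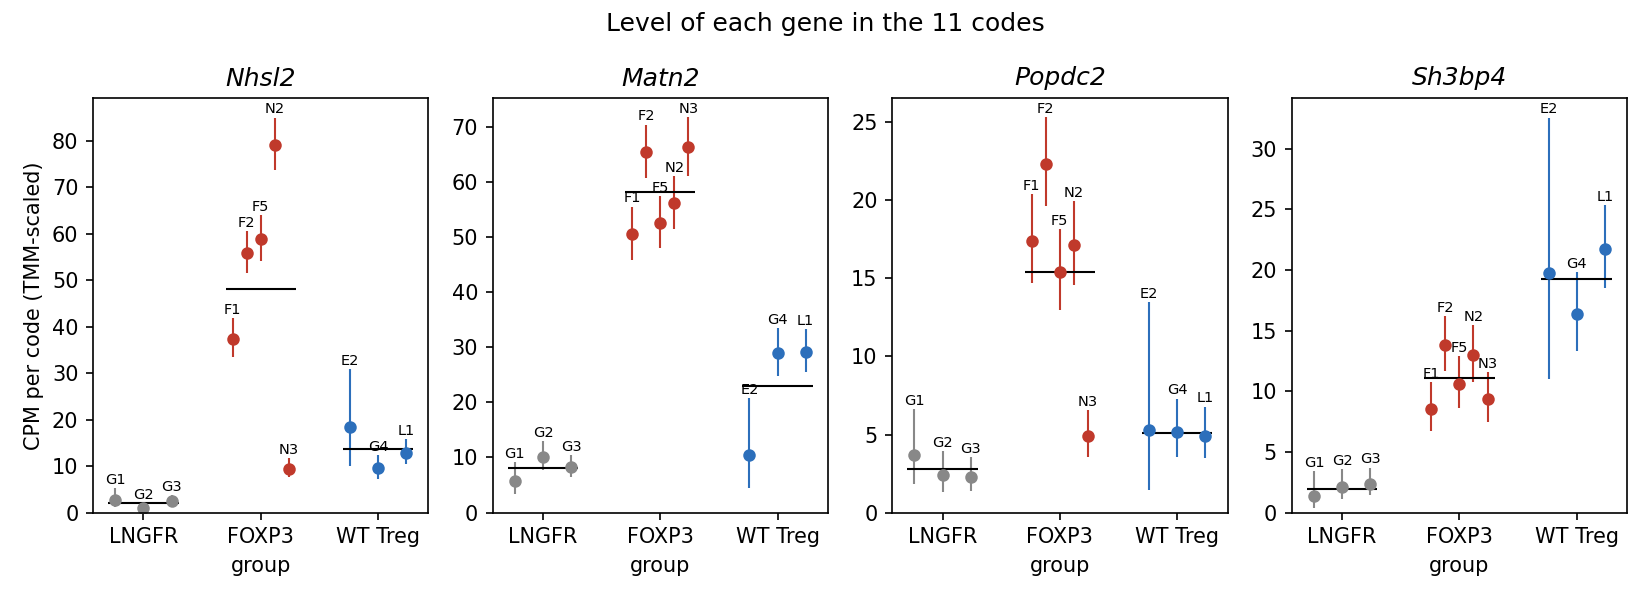
CPM (linear axis from 0) for each of the 4 genes, 1 point per code by group, with vertical bars for the 95% Poisson interval of the count and a horizontal line at the group mean. All FOXP3 codes lie above all LNGFR codes, N3 is low for Nhsl2 (9.47 CPM) and Popdc2 (4.90 CPM), and the WT Treg codes are the highest group only for Sh3bp4 (16.3 to 21.7 CPM).

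Counted together, all 4 genes had every FOXP3 code above every LNGFR code, which the choice of the genes brings with it (4.35% of tested genes did). The same choice placed them among the 26 genes called higher in FOXP3 (0.168% of those tested, and 0.543% in either direction), so that nothing is read from it. By size of the fold change in that list, Nhsl2 stood 2nd, Matn2 6th, Popdc2 8th and Sh3bp4 10th. In WT Treg against LNGFR, 2 of the 4 passed the test, Matn2 and Sh3bp4, where 0.627% of tested genes were called higher and 1.3% in either direction. All 4 had every WT Treg code above every LNGFR code, against 7.8% of tested genes. This comparison uses the same 3 LNGFR codes as the one that chose the genes. Genes picked for low values in those codes are favoured in it, so the shares of all tested genes are not a matched reference. Of the 26 genes called higher in FOXP3, some others passed here too, such as Crybg3 (adjusted p = 0.00638, edgeR). Some did not, such as Nos1 (adjusted p = 0.727, edgeR). No excess over the shares is therefore read from these counts. In FOXP3 against WT Treg, which uses the same FOXP3 codes, none of the 4 passed in edgeR's test, where 0.259% of tested genes did. All 4 had an unadjusted p under 0.05 there (from 0.00121 for Matn2 to 0.0127 for Sh3bp4, edgeR), as did 16.5% of tested genes. With DESeq2, which called 7.19% of tested genes, Nhsl2, Matn2 and Popdc2 passed (adjusted p = 0.0358, 0.00101 and 0.0352).

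**Figure D2:**
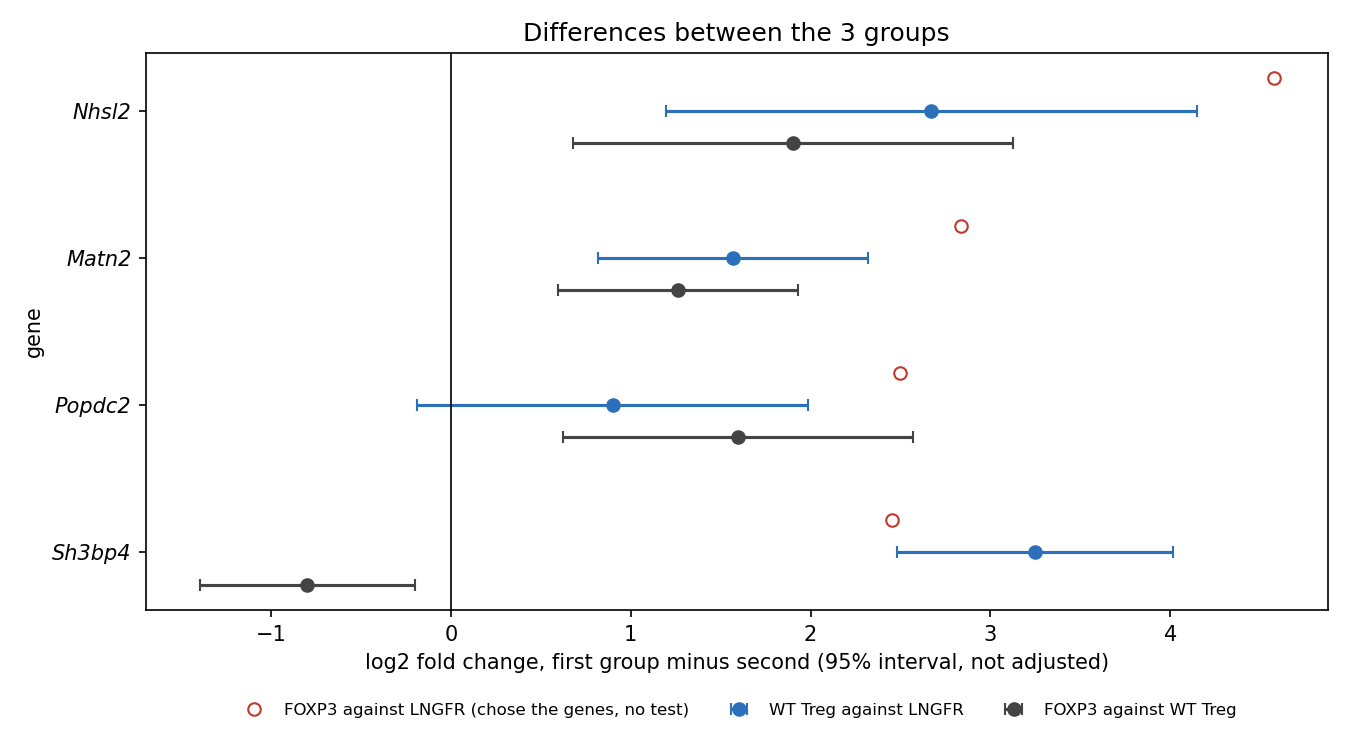
Fitted log2 differences for the 4 genes, with 95% intervals that are not adjusted for the number of genes, for WT Treg against LNGFR and FOXP3 against WT Treg. Open circles are FOXP3 against LNGFR, the comparison that chose the genes, without an interval. Sh3bp4 alone has a negative FOXP3 against WT Treg difference (-0.80), and the Popdc2 interval for WT Treg against LNGFR crosses 0.

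Levels of different genes were compared per kilobase of exon (RPKM). In FOXP3 cells the order was Matn2 at 9.29 ± 1.17 RPKM, Popdc2 at 6.54 ± 2.72, Nhsl2 at 2.84 ± 1.55 and Sh3bp4 at 2.16 ± 0.441 RPKM (SD, n = 5). Each neighbouring pair in this order overlapped within 1 SD, while Matn2 lay above Nhsl2 and Sh3bp4 beyond their spread. In WT Treg, Sh3bp4 (3.77 ± 0.532 RPKM) and Matn2 (3.65 ± 1.71 RPKM) were the highest, followed by Popdc2 (2.17 ± 0.0740 RPKM), which was within the spread of Matn2, and by Nhsl2 (0.804 ± 0.265 RPKM), which was below the rest beyond its spread. Sh3bp4 thus had the lowest mean of the 4 in FOXP3 cells and the highest in WT Treg, level there with Matn2. In LNGFR cells, Matn2 (1.28 ± 0.350 RPKM) and Popdc2 (1.18 ± 0.334 RPKM) were above Sh3bp4 (0.380 ± 0.106 RPKM) and Nhsl2 (0.121 ± 0.0562 RPKM). Nhsl2 has 16952 bases of annotated exon against 2360 in Popdc2, and with reads from only some isoforms its value per kilobase would be too low.

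Code N3 separated the 4 genes into pairs. Nhsl2 averaged 6.11 times and Popdc2 3.69 times its N3 level in the other 4 FOXP3 codes, which spanned 37.5 to 79.2 CPM and 15.4 to 22.3 CPM. Matn2 in N3 (66.3 CPM, others 50.5 to 65.4) and Sh3bp4 in N3 (9.36 CPM, others 8.57 to 13.8) did not stand below the rest. Both N3 libraries were low for Nhsl2 (7.13 and 12.8 CPM of the library total) and for Popdc2 (2.76 and 7.55). Low values in N3 were not particular to these genes. Among known genes of regulatory T cells, not picked for likeness, N3 was the lowest FOXP3 code for Foxp3 (162 CPM) and Il2ra (464 CPM). The same held for Ikzf2 (200 CPM) and Tnfrsf9 (87.3 CPM). N3 is also the code with the high B cell marker sum of 5543 CPM, and its T cell marker sum of 2892 CPM was the lowest of the FOXP3 codes. The part of these markers in the low Nhsl2 and Popdc2 values was not tested.

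The libraries of a code show how precise each value is, with CPM here relative to the library total. Within FOXP3 codes the higher library exceeded the lower by a median factor of 1.22 for Matn2, 1.43 for Popdc2, 1.64 for Sh3bp4 and 1.78 for Nhsl2. In G1 the libraries differed widely: Nhsl2 had 3 counts (1.08 CPM) in the first and 5 counts (15.0 CPM) in the second, and Matn2 had 7 (2.52 CPM) and 10 (30.1 CPM). Sh3bp4 had no count in the first G1 library, which allows up to 1.08 CPM, and 4 counts (12.0 CPM) in the second. In E2, Popdc2 had 0 counts in the first library, which allows up to 4.67 CPM, and 4 in the second (7.80 CPM). Nhsl2 differed between the libraries of G4 as well, with 9 counts (3.08 CPM) and 50 counts (16.5 CPM). Leaving out the 3 weak libraries, both of E2 and library 2 of G1, removed code E2, so that WT Treg rested on G4 and L1. WT Treg then exceeded LNGFR on the log2 scale by 3.43 for Sh3bp4 (adjusted p = 0.00857, edgeR) and by 1.95 for Matn2 (0.0147). For Nhsl2 the difference was 2.72 (adjusted p = 0.0919, edgeR) and for Popdc2 0.87. The FOXP3 against LNGFR differences were then 4.81 for Nhsl2, 2.94 for Matn2, 2.48 for Popdc2 and 2.65 for Sh3bp4.

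**Figure D3:**
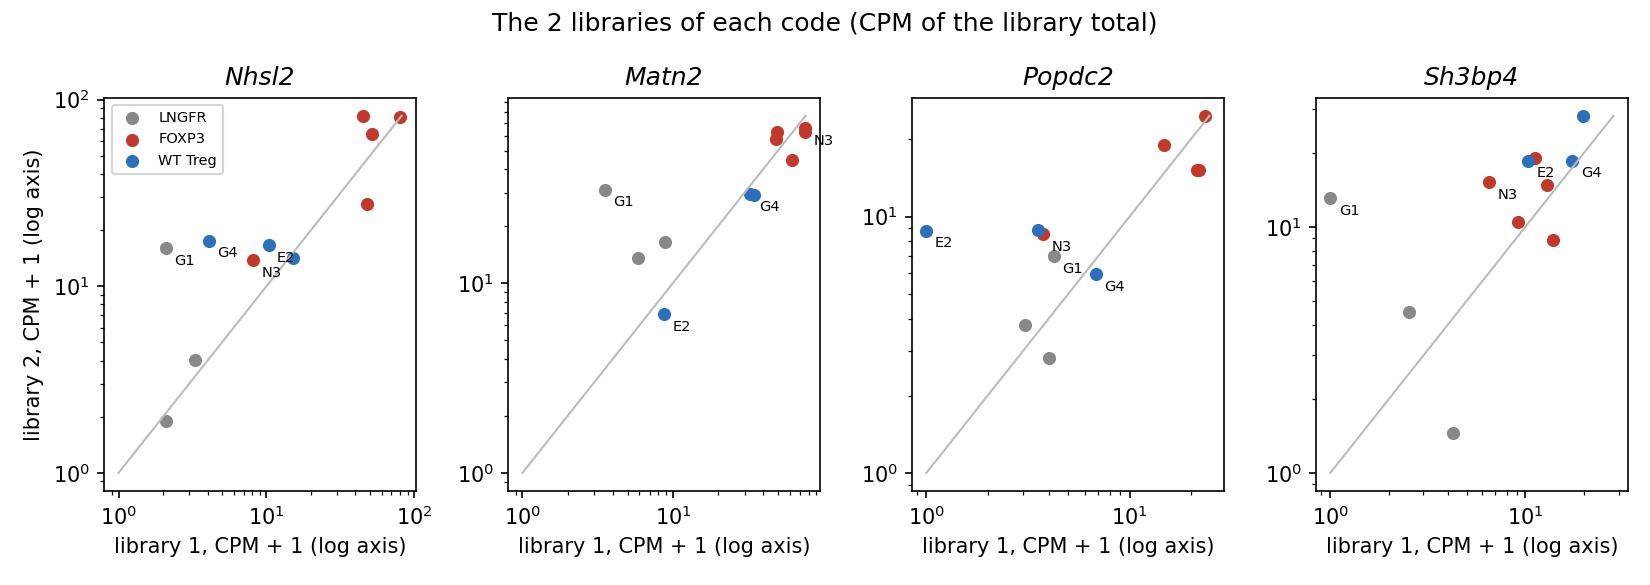
CPM of the library total plus 1, for each of the 4 genes, in the first library of a code (x axis) against the second (y axis), both on log axes with 1 point per code, a line of equality and names beside E2, G1, G4 and N3. Before 1 is added, the libraries of FOXP3 codes differed by at most 2.73-fold, and those of G1, with few counts, by 13.9-fold for Nhsl2.

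Relatives were examined for 3 of the 4 genes, in the NHS, matrilin and Popeye families, and none of them had enough reads to be tested. Nhs and Nhsl1 averaged 0.251 and 0.0823 CPM in FOXP3, 0.904 and 1.32 CPM in LNGFR and 9.56 and 1.67 CPM in WT Treg, where Nhs reached 27.6 CPM in E2 and stayed near its lowest WT Treg value of 0.400 CPM in the other codes. Matn1, Matn3 and Matn4 and the Popeye genes Bves and Popdc3 averaged 0.0186 to 0.173 CPM in FOXP3. Nhsl2, Matn2 and Popdc2 were thus the only members of their families among the tested genes.

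Of 50 family and partner genes of the 4 proteins, 38 were tested. In FOXP3 against LNGFR 1 of them was called higher (2.63%, against 0.168% of all tested genes), and in WT Treg against LNGFR 3 (7.89%, against 0.627%). Of the 11 genes of the WAVE complex, 9 were tested and none passed in FOXP3 against LNGFR, with a median log2 difference of 0.39 against -0.02 over all genes. Nckap1, a WAVE scaffold, rose in WT Treg against LNGFR (5.45 to 19.5 CPM, log2 difference 1.80, adjusted p = 0.0414, edgeR) and was at 9.53 CPM in FOXP3. That call held in 2 of the 11 fits that left out 1 code, and not without E2 (adjusted p = 0.0588). Of 9 matrix partners of matrilin-2, 6 were tested, and Lamc1, a laminin chain, passed in both comparisons with LNGFR. Lamc1 averaged 14.5 CPM in LNGFR, 40.3 CPM in FOXP3 (log2 difference 1.47, adjusted p = 0.0397, edgeR) and 57.4 CPM in WT Treg (2.01, adjusted p = 0.00615). With 1 code left out, the Lamc1 call held in 2 of 11 fits for FOXP3 and in 7 for WT Treg. The median differences of the 6 genes from LNGFR were -0.15 in FOXP3 and 1.39 in WT Treg, and the latter turned to -0.87 without E2. Nid1, a basement membrane gene, was at 30.3 CPM in E2 and at 0.162 and 0.533 CPM in G4 and L1, against a mean of 3.13 CPM in LNGFR. Among 13 effectors and phosphodiesterases of the cAMP pathway, all tested, none passed in either comparison (median log2 differences -0.10 and -0.14). Pde7a, a cAMP phosphodiesterase, averaged 43.1 CPM in LNGFR against 17.7 in FOXP3, a difference that did not pass (adjusted p = 0.368, edgeR). Nearest to the threshold was Rapgef3, a cAMP-activated exchange factor, at 13.6 CPM in WT Treg, 2.25 CPM in LNGFR and 3.82 CPM in FOXP3 (WT Treg against LNGFR 2.67, adjusted p = 0.0983, edgeR). Without E2, Pde3b, another cAMP phosphodiesterase, was called lower in WT Treg than in LNGFR (-4.44, adjusted p = 0.00308, edgeR).

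Among 10 trafficking and Rag partners of Sh3bp4, all tested, none passed in FOXP3 against LNGFR (median 0.30) and 1 rose in WT Treg against LNGFR (median 0.22). That gene was Rragd, a Rag GTPase, at 20.8 CPM in WT Treg, 2.04 CPM in LNGFR and 3.77 CPM in FOXP3 (WT Treg against LNGFR 3.54, adjusted p = 0.0291, edgeR), a call that held in 6 of 11 fits with 1 code left out. Tfrc, the transferrin receptor, averaged 39.1, 31.0 and 69.8 CPM in FOXP3, LNGFR and WT Treg and did not pass in either comparison with LNGFR (adjusted p = 0.714 and 0.116, edgeR). No gene of these partner lists passed in FOXP3 against WT Treg. For scale, 12 known genes of regulatory T cells were examined. Of these, 1 rose in FOXP3 against LNGFR (0.168% of all tested genes did) and 7 in WT Treg against LNGFR (0.627%). Of the 12, 3 were lower in FOXP3 than in WT Treg, as were 19 of all 15462 tested genes. The gene that rose in FOXP3, Tnfrsf9, which encodes the costimulatory receptor 4-1BB, averaged 162 CPM there, 17.0 CPM in LNGFR and 246 CPM in WT Treg (FOXP3 against LNGFR 3.23, adjusted p = 0.0187, edgeR), and its call held in 4 of 11 fits with 1 code left out.

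Of the 16 nearest protein-coding genes, 2 on each side of each of the 4, 11 were tested. None passed in FOXP3 against LNGFR, and 1 was higher in WT Treg against LNGFR, where 0.627% of all tested genes were. Laptm4b, which encodes a lysosomal membrane protein and lies 22375 bp from Matn2, rose from 3.62 CPM in LNGFR to 12.8 CPM in WT Treg (log2 difference 1.74, adjusted p = 0.0417, edgeR) and was at 9.22 CPM in FOXP3 (1.31, adjusted p = 0.12). Its WT Treg call held in 2 of 11 fits with 1 code left out. Ercc6l, a mitotic helicase gene beside Nhsl2, had 17.2 CPM in FOXP3, 4.18 CPM in LNGFR and 9.41 CPM in WT Treg (FOXP3 against LNGFR 2.01, adjusted p = 0.18, edgeR). Genes that overlap the 4 held few reads: 84 counts over all libraries for Rtl5 within Nhsl2, 14 for 9430069I07Rik at Matn2, 2 for Gm21987 at Popdc2 and 3 for Gm38312 at Sh3bp4. Strand use in counting is not given in the sources used here, so reads of overlapping genes cannot be told apart.

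Summed markers of striated muscle, where Popdc2 is abundant, were at most 2.23 CPM in FOXP3 codes. They reached 17.1 CPM in E2 and 26.9 CPM in G1, both with a weak library, where Popdc2 was at 5.26 and 3.70 CPM. Stromal markers, of cells that secrete matrix, summed to 103 CPM in E2 and to 3.56 to 26.9 CPM in all other codes, while Matn2 in E2 was the lowest of WT Treg (10.5 CPM). Stromal sums in FOXP3 codes, where Matn2 was highest, were 3.92 to 12.7 CPM. The part of these cells in the levels of Popdc2 and Matn2 was not tested.

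The 3 named genes most like each of the 4 were found by Pearson correlation of log2 CPM over the 11 codes, a description in which all genes share the same libraries and depth. For Nhsl2 they were Hmmr (r = 0.962), Fut7 (0.952) and Cdc25c (0.952), of which Hmmr and Cdc25c are known from mitosis and Fut7 encodes a fucosyltransferase. For Popdc2 they were Tmprss13 (0.973), a membrane serine protease, Fut7 (0.952) and Casp8ap2 (0.948). For Matn2 they included Rsrc2 (0.945) and Rasal1 (0.944), a Ras GTPase activator. For Sh3bp4 they were Arhgef12 (0.961), Usp28 (0.954), a deubiquitinase, and Crybg3 (0.952). Among the 4 themselves, Nhsl2 and Popdc2 were the most alike (0.937), and Popdc2 and Sh3bp4 the least (0.537).

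The genes like Nhsl2 and Popdc2 were also lowest in N3 among FOXP3 codes, by little for Casp8ap2 (53.0 CPM against 60.6 to 63.5). They were picked for likeness over codes that include N3, which favours such genes, so their N3 levels are a description only. Tmprss13 was at 16.3 CPM in N3, where the remaining FOXP3 codes held 89.2 to 109 CPM and the WT Treg codes 15.8 to 21.6 CPM. Fut7 was at 38.1 CPM in N3, near the 37.5 to 57.0 CPM of WT Treg and below the 104 to 129 CPM of the other FOXP3 codes. Hmmr was at 12.0 CPM in N3 against 23.6 to 50.5 CPM, and Cdc25c at 3.48 against 16.9 to 26.4 CPM. LNGFR codes held 7.84 to 22.2 CPM of Tmprss13, which includes the N3 level, 19.7 to 32.3 CPM of Fut7, 5.12 to 8.07 CPM of Hmmr and 1.92 to 3.70 CPM of Cdc25c. For Cdc25c, N3 lay within the LNGFR range and below the WT Treg range of 6.58 to 7.99 CPM. Crybg3, a gene like Sh3bp4, was at 34.2 to 41.6 CPM in WT Treg.

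**Figure D4:**
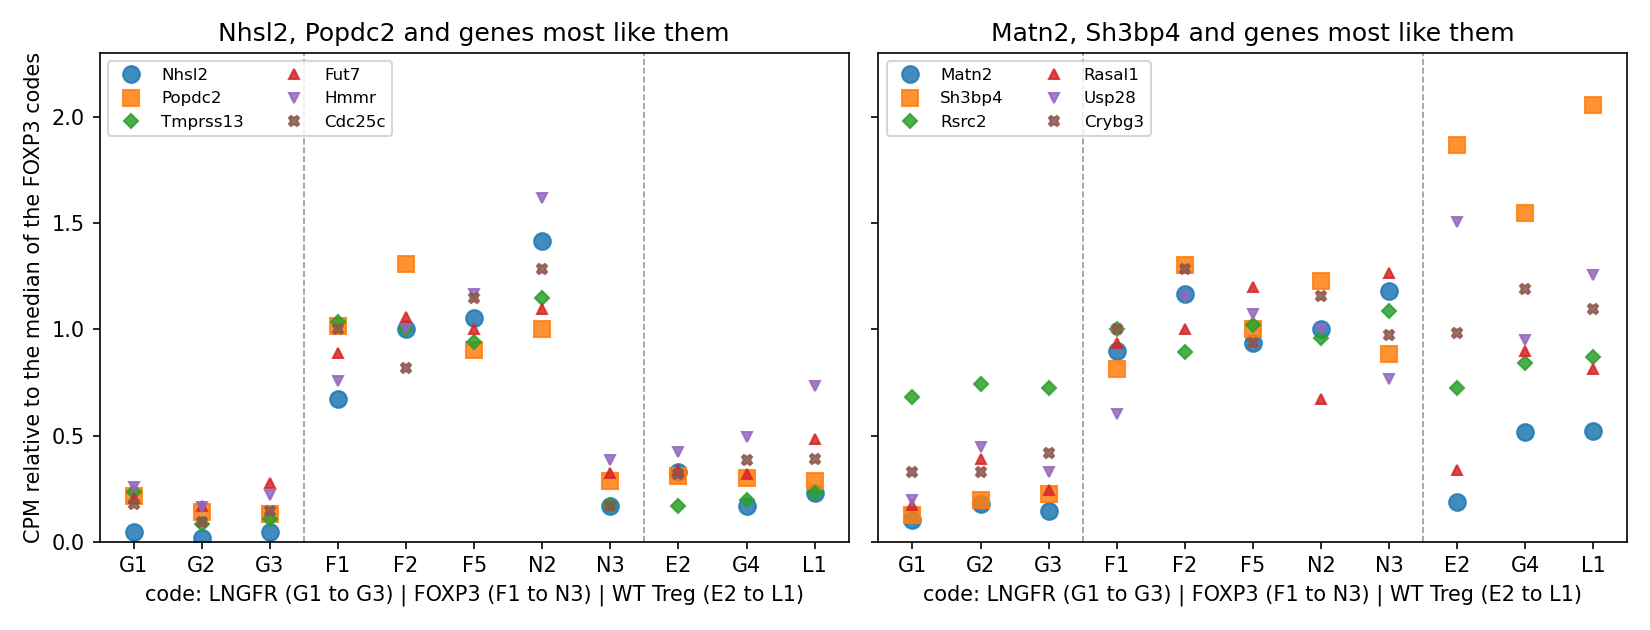
CPM relative to the median of the FOXP3 codes, by code. The left panel shows Nhsl2 and Popdc2 with Tmprss13, Fut7, Hmmr and Cdc25c. The right panel shows Matn2 and Sh3bp4 with Rsrc2, Rasal1, Usp28 and Crybg3. Each panel thus adds 4 of the genes most like its pair, and Casp8ap2 and Arhgef12 are not drawn. On the left, N3 lies below the other FOXP3 codes for all genes shown, within or below the WT Treg range. The choice of genes by likeness over codes that include N3 favours this. On the right it lies with the other FOXP3 codes, and Sh3bp4 is highest in WT Treg.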

How the data were processed

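Each of the 22 Smart-seq libraries was made from 1000 sorted cells by oligo(dT) priming, Tn5 fragmentation and 18 PCR cycles, with no molecular identifiers, per the labels' protocols. The authors deposited raw read counts per gene symbol, and the submitters' processing notes name STAR 2.7.3a, featureCounts, Subread 2.0.0 and mm10 (GRCm38). Not given in the sources used here: annotation, strand and multi-mapping settings. PCR copies were counted too, so intervals and floors cover counting error only, and a count of 0 allows up to 3 counts.

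Groups were taken from the titles, and the 2 libraries of a code were summed. No pair of libraries agreed within sampling noise (chi-square per degree of freedom 1.89 to 34.2). A single model over 11 codes was fitted with edgeR 4.0.16 (R 4.3.3; TMM, filterByExpr, robust quasi-likelihood test), with Benjamini-Hochberg adjustment over 15462 genes and a threshold of 0.05, and was tested on simulated data. Standard errors are the size of the log2 fold change over the square root of F, approximate, and the 95% intervals are per gene. Per kilobase values use GENCODE M21 exon length, where 52830 of 55011 symbols matched. Alternatives used limma 3.58.1 and DESeq2 1.42.0, other scalings and filters, single libraries and left-out samples; the list medians without E2 were added after seeing the data.

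The 4 genes and all gene lists were chosen with earlier results of these data known. Genes named besides the 4 are those of their families, list genes past the threshold or with the smallest p, the nearest genes and the 3 most alike by correlation, of which 1 is not reported here.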

Additional observations from a re-analysis of the deposited data

Results flagged for a closer look

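In 26 genes examined, the highest or lowest of the 5 FOXP3 codes lay far from the rest for 4 genes. The limit used gives about 1 in 20 by chance for unrelated genes. That rate is no reference for these 26, since some were picked for likeness over the same codes, N3 included. No excess is read from the count. In code N3, Fut7 was at 38.1 CPM, Tmprss13 at 16.3 CPM and Casp8ap2 at 53.0 CPM, each below the other 4 FOXP3 codes by a gap that was most of the group's range. For Casp8ap2 the distance is small, since the others lay at 60.6 to 63.5 CPM. These 3 genes were named for their likeness to Nhsl2 or Popdc2, so they are not separate evidence of the low N3 values of those genes. Popdc3, a relative of Popdc2, was at 0.0931 CPM in F2, a single count, and at 0 in the other FOXP3 codes. Popdc2 and Nhsl2 themselves did not reach the limit, with gaps of 0.603 and 0.402 of the range.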

How the results depend on the processing

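No paired analysis was possible because the groups share no code. No log2 difference of the 4 genes reversed under any of the 20 alternatives each. In WT Treg against LNGFR, Nhsl2 passed with DESeq2 (2.71), without the filter on low counts (2.60), with each library as a sample (2.54) and without codes E2, G1 and N3 together (2.63), and ran from 2.33 to 2.98 with 1 code left out. Matn2 lost its call without the filter (1.52, adjusted p = 0.0507) and in a fit of only both groups compared (1.52, 0.248), and ran from 1.34 to 1.84 with 1 code left out, and from 2.67 to 3.16 in FOXP3 against LNGFR. Counting single libraries as samples ignores that 2 share a code.

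In FOXP3 against WT Treg, the same 4 alternatives and limma voom brought Nhsl2, Matn2 and Popdc2 past the threshold. For DESeq2, voom, no filter, each library and without E2, G1 and N3, the values were 1.79, 2.08, 2.12, 1.90 and 2.35 for Nhsl2. They were 1.20, 0.99, 1.43, 1.17 and 0.94 for Matn2, and 1.57, 1.69, 1.78, 1.56 and 1.83 for Popdc2. With 1 code left out, Nhsl2 ran from 1.63 to 2.16 and Popdc2 from 1.41 to 1.81. Sh3bp4 passed with voom (-0.80, adjusted p = 0.0217).

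Counts of called genes moved more. FOXP3 against LNGFR gave 84 genes, and 403 with DESeq2, 1048 with voom, 329 without the filter, 184 with only both groups, 781 by library, 250 without the 3 weak libraries, 1565 without E2, G1 and N3, and 14 to 273 with 1 code left out. WT Treg against LNGFR gave 201 genes, and under the same settings 751, 867, 1000, 58, 791, 318, 1125 and 37 to 299. FOXP3 against WT Treg gave 40 genes, and 1111, 1066, 3615, 135, 947, 66, 1090 and 4 to 1230, with 63 under relative log expression scaling. The cause was not tested. In WT Treg, E2 gave only 4 to 15 counts for each of the 4 genes.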
